A study of Mus musculus with 6 samples.

Results

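The annexins described here are the 10 genes Anxa1 to Anxa10, and they were read by every non-control array probe that carries one of these gene names. These were 14 probes, printed on 23 of the 59305 non-control spots of each array, out of 55681 probes and 34298 gene names in all. Anxa1, Anxa4, Anxa7 and Anxa8 each had a pair of probes and the other 6 genes had 1 each. RNA was measured in epithelial organoids, which are small hollow or solid bodies that stem cells of an epithelium form in a gel. The study set organoids of the stratified squamous epithelium of the mouse esophagus beside organoids of the columnar epithelium of the stomach, 3 arrays against 3, both tissues labelled with mouse numbers 1, 2 and 4. All cultures were at passage 0 and carried the label of controls. They were harvested on day 8, apart from the stomach culture of mouse 4, which was harvested on day 7. The methods name wild-type female mice, and tie neither these nor an age to single arrays.

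In the organoid media of the methods, both tissues shared EGF, noggin, FGF-10, an inhibitor of the TGF-beta receptor kinase and a ROCK inhibitor. WNT3A, R-spondin1 and gastrin are listed there only for the stomach, and forskolin only for the esophagus. The study also grew esophagus organoids with WNT3A and R-spondin1, and the methods tie no medium to single arrays. Stomach cultures were started from glands of the corpus and esophagus cultures from dissociated cells. By these methods tissue, medium and way of isolation changed together, so their parts in any difference below cannot be told apart. In bulk RNA, fewer cells of a type and less RNA per cell cannot be told apart either.

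Annexins are cytosolic proteins that bind negatively charged phospholipids when calcium rises, through a core of repeated helical domains and an amino-terminal tail that differs between members. They take part in membrane repair, vesicle traffic, the coupling of membranes to actin and, once outside the cell, in signalling and plasminogen activation. In stratified squamous epithelium Anxa1 is known as an abundant protein that is cross-linked into the envelope of differentiating keratinocytes. Anxa10 is known as a gene of the gastric mucosa whose product has lost most calcium-binding sites of the core.

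The 6 arrays carried the RNA the labels name. Among markers of basal squamous cells, Krt5 was higher in esophagus organoids by 11.93 on the log2 scale, and among gastric markers Krt8 differed by -11.24. Tff2, another gastric marker, was well above background on 0 esophagus arrays and, on the authors' values, at least 6350-fold higher in stomach organoids. Krt5 in stomach and Krt8 in esophagus organoids were well above background on 1 array each. The brightest Trp63 probe went the other way and was higher in stomach organoids, with a log2 difference of -1.22. Other Trp63 probes of the array are not given here, so this is the reading of 1 probe and not of the gene. By staining, the study reported esophagus organoids as positive for the P63 protein. The summed signal of 6 suprabasal squamous markers was 118000 to 445000 in esophagus organoids and 448 to 678 in stomach organoids. Of these, Ivl was not called (difference 0.05, adjusted p = 0.96), nor was Itga6 of the basal list (difference 0.57, adjusted p = 0.171). The summed signal of 7 gastric markers was 502000 to 615000 in stomach organoids and 1540 to 3310 in esophagus organoids. Of 8 fibroblast and smooth muscle genes, 0 to 2 were well above background on any array, with summed signals of 231 to 271. Of 4 endothelial genes, 3 were well above background on each stomach array and 2 on each esophagus array. Among them Vwf was called 1.55-fold higher in stomach organoids on the authors' values (adjusted p = 0.0302), although it was not well above background in esophagus organoids. The part of Vwf in the results was not tested. Ptprc, which defines leukocytes, stood well above background on 0 of the 6 arrays, although other genes of the immune list gave summed signals of 5560 to 30900 in esophagus and 12300 to 17600 in stomach organoids. Of that list Itgam, an integrin of myeloid cells, was called 6.14-fold higher in stomach organoids (means 13.34 and 10.72, adjusted p = 0.000662), and its part in the results was not tested. Between 45.5% and 51.1% of the non-control spots of an array were well above background. The arrays lay on 2 slides, 5 of them on slide 1, and the esophagus array of mouse 4 lay alone on slide 2.

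The probes behind the results are 60 bases long, and 7 of them are shown, whole or in part, to identify what was read. Coordinates are those of the array design, on build mm9, and gene names are those of the deposited scanner files. Both Anxa1 probes are given because they gave differences of unequal size, and the others because their genes differed between the tissues or between esophagus arrays. The 2 probes shown whole start at base 991 of the Anxa1 transcript and at base 639 of the Anxa3 transcript. Of the others the last 30 bases are given, 5′ to 3′, and capitals mark the hexamer AATAAA, the common polyadenylation signal.
Anxa1 A_66_P120567: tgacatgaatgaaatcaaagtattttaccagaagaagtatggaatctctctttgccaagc
Anxa1 A_55_P2092826: cctgagaaagaagtttacatatAATAAAat
Anxa3 A_55_P2056325: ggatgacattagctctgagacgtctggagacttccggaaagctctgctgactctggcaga
Anxa4 A_55_P2092859: ctgtgcttgcatttaatcatgaagtttggt
Anxa6 A_55_P2076792: cacatctcaagacataccaaacctctgtct
Anxa9 A_55_P2092869: ttccaaacctctaggaaggcattaaaaata
Anxa10 A_51_P216679: gggagagtttgaaggtgatgcgatcttctt
The hexamer was present in 3 of the 14 annexin probes, one each of Anxa1, Anxa2 and Anxa7, and in 10.1% of all 55681 probes. The Anxa1 probe A_66_P120567 lies at chr19:20449722-20449781 and A_55_P2092826 at chr19:20447938-20447997, both on the minus strand. The Anxa3 probe lies at chr5:97253925-97253984 on the plus strand. The Anxa4 probe A_55_P2092859 lies at chr6:86686883-86686942, the Anxa6 probe at chr11:54792616-54792675, the Anxa9 probe at chr3:95100039-95100098 and the Anxa10 probe at chr8:64536504-64536563, all on the minus strand.

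Of the 14 annexin probes, 2 were higher in esophagus organoids, both of Anxa1, and 4 were higher in stomach organoids, one each of Anxa3, Anxa4, Anxa6 and Anxa10. A probe was called at an adjusted p under 0.05 in a limma fit over all probes. Among all probes, 5.94% were called higher in esophagus and 6.22% higher in stomach organoids. With each gene read by its brightest probe, 1 annexin was higher in esophagus, 4 were higher in stomach and 5 were not called, beside 7.15% and 7.7% of all genes. With the mouse as a block, the probes called higher in esophagus fell to 1 and the genes to 0. The median log2 difference, esophagus minus stomach, was -0.08 over the annexin probes and -0.19 over the brightest probe of each annexin, beside 0.03 over all genes. Of the annexin probes, 12 were well above background on all 6 arrays, and 5 of these were called, beside 20.4% of all probes as bright. The values of the groups did not overlap for 8 annexin probes, beside 28.6% of all probes. By the rule of the study's methods, an unadjusted p under 0.05 with at least 1.5-fold, 7 annexin probes differed, beside 18.1% of all probes. With 3 arrays against 3, the exact permutation test of a single probe could not go below 0.1, two-sided, and all 8 probes without overlap had that value.

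**Figure D1:**
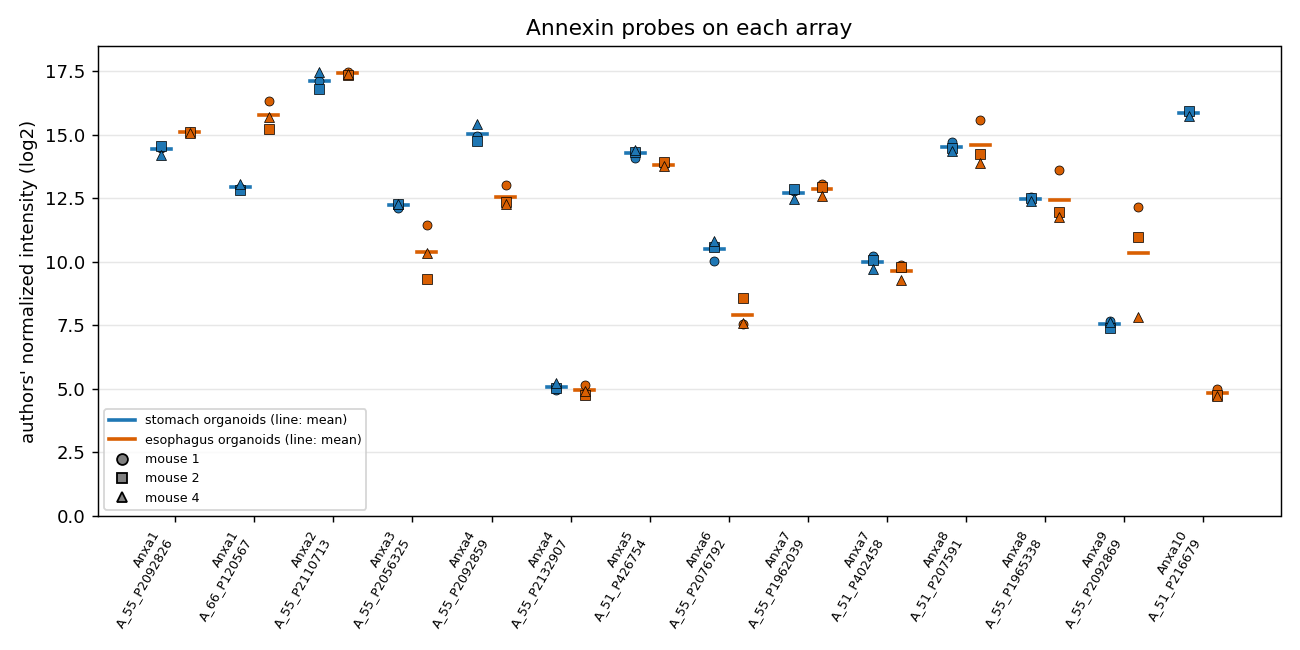
Authors' normalized log2 intensity of the 14 annexin probes on each of the 6 arrays, with stomach organoids in blue, esophagus organoids in orange, a marker shape for each mouse and a line at each group's mean. Anxa10 stood at 15.73 to 15.93 in stomach and at 4.71 to 4.99 in esophagus organoids, and levels of different probes are not comparable.

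**Figure D2:**
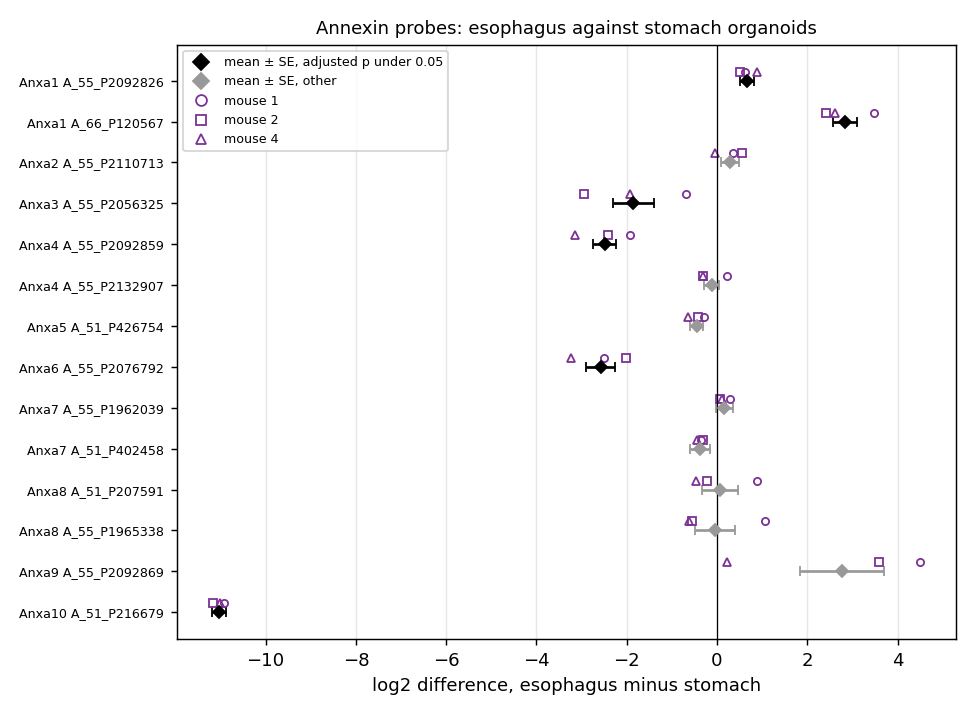
Log2 difference, esophagus minus stomach, of each annexin probe, with diamonds for the limma estimate and its SE (black where the adjusted p was under 0.05) and open purple marks for the difference within each mouse. Differences ran from -11.03 for Anxa10 to 2.83 for one Anxa1 probe.

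Anxa10 differed more than any other annexin. Its probe read 15.90, 15.93 and 15.73 in stomach organoids of mice 1, 2 and 4, and 4.99, 4.78 and 4.71 in esophagus organoids. It was well above background on all 3 stomach arrays and on none of the esophagus arrays, so only a bound on the fold can be given. On the authors' values, Anxa10 was at least 1910-fold higher in stomach organoids. This bound sets the stomach mean against the lowest signals that counted as well above background, and it holds for that processing only. The measured log2 difference was -11.03 (SE 0.15, adjusted p = 3.23e-08), and the 3 mice gave -10.92, -11.16 and -11.01. Under the 15 alternative ways of processing, the log2 difference ranged from -13.81 to -9.80 and was called in each. The smallest, -9.80 with the normexp offset of 50, lay below that bound.

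Anxa4, a phospholipid-binding annexin known from the apical side of secretory epithelia, was 5.63-fold higher in stomach organoids. Probe A_55_P2092859 read 14.95, 14.75 and 15.42 in stomach and 13.02, 12.34 and 12.28 in esophagus organoids. The lowest stomach value stood above the highest esophagus value by more than the range within either group (0.67 in stomach, 0.74 in esophagus). The log2 difference was -2.49 (SE 0.26, adjusted p = 0.000558), with -1.93, -2.41 and -3.14 in mice 1, 2 and 4. The second Anxa4 probe, A_55_P2132907, lies at chr6:86700845-86700904 and carries an Ensembl transcript name in place of the RefSeq transcript. On each of the 6 arrays it failed to stand well above background, and it gives no information on Anxa4.

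Anxa6, the annexin with a duplicated core, was 6-fold higher in stomach organoids. It read 10.04, 10.59 and 10.82 in stomach and 7.54, 8.58 and 7.59 in esophagus organoids, well above background throughout. The groups were apart by more than the range within either, and mouse 2 had the smallest difference. The log2 difference was -2.58 (SE 0.32, adjusted p = 0.00154), with -2.50, -2.01 and -3.24 in the 3 mice. Anxa4 and Anxa6 were both called under all 15 alternatives, within -2.73 to -2.14 for Anxa4 and -2.92 to -2.39 for Anxa6.

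Anxa3 was 3.60-fold higher in stomach organoids, with a call that many alternatives did not keep. It read 12.12, 12.26 and 12.29 in stomach organoids, a range of 0.17. In esophagus organoids it read 11.44, 9.32 and 10.36, a range of 2.13. All esophagus values lay below all stomach values, but they were scattered over a wider range than the gap to the stomach values. The log2 difference was -1.85 (SE 0.46, adjusted p = 0.0393), with -0.68, -2.94 and -1.93 in the 3 mice. It lost its call under 9 of 15 alternatives, including the omission of any array but esophagus 1, where the adjusted p was 0.0512 to 0.135. The log2 difference stayed between -2.38 and -1.32 over all 15.

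Anxa1, known as a calcium-dependent phospholipid-binding protein of keratinocytes and as a ligand of formyl peptide receptors, was higher in esophagus organoids by both of its probes, but by unequal amounts. Probe A_66_P120567, which starts at base 991 of the transcript, read 12.89, 12.84 and 13.08 in stomach and 16.35, 15.25 and 15.71 in esophagus organoids. The esophagus values were all above the stomach values, and mouse 1 had the highest. The log2 difference was 2.83 (SE 0.27, adjusted p = 0.000349), which is 7.12-fold, and mice 1, 2 and 4 gave 3.47, 2.41 and 2.62. This probe was called under all 15 alternatives, with log2 differences of 2.54 to 3.09.

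The other Anxa1 probe, A_55_P2092826, starts at base 1321 and ends close after an AATAAA hexamer. It read 14.49, 14.58 and 14.22 in stomach and 15.10, 15.11 and 15.09 in esophagus organoids. The groups did not overlap, and the esophagus values lay close together (SD 0.01), while those of the first probe had an SD of 0.55. The log2 difference was 0.67 (SE 0.15, adjusted p = 0.0269), which is 1.59-fold. It lost its call under 10 of 15 alternatives. Among them were the mouse block (adjusted p = 0.0604), the slide block (adjusted p = 0.0594) and leaving out any 1 array (adjusted p = 0.0534 to 0.0873). The slide block and leaving out esophagus 4 gave the same result and are counted separately. No spot of either probe was saturated. The brightest-probe rule took this probe for Anxa1, so where its call was lost the esophagus count by brightest probe became 0, except with the slide block and without esophagus 4, where Anxa9 was called in its place.

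**Figure D3:**
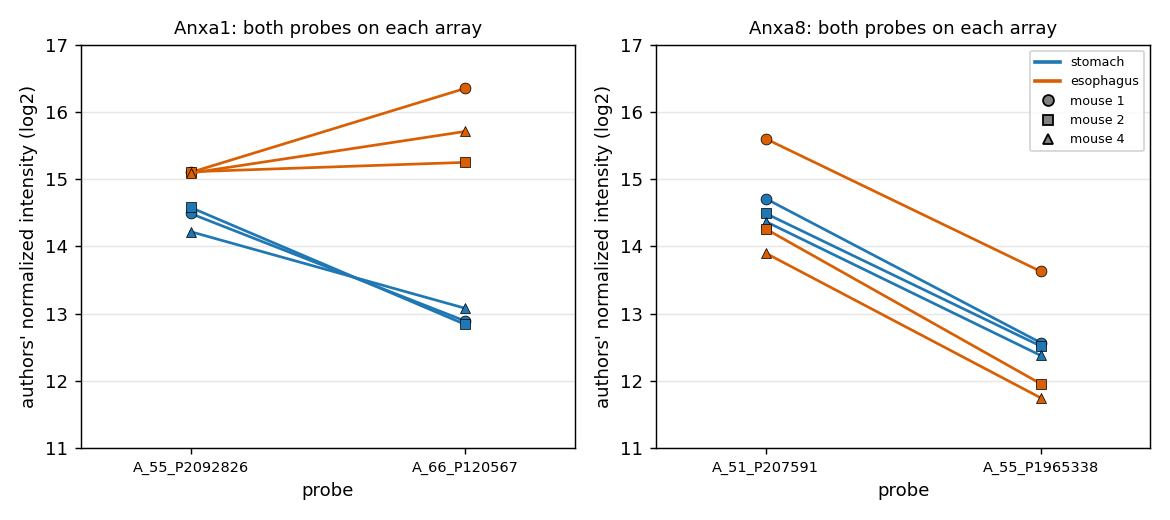
Authors' normalized log2 intensity of both Anxa1 probes (left) and both Anxa8 probes (right), with 1 line for each array. The height of a line at different probes is not comparable, but the tissues were 0.67 apart at one Anxa1 probe and 2.83 apart at the other, while both Anxa8 probes placed the esophagus array of mouse 1 highest.

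Anxa9, an annexin whose core is known to lack working calcium-binding sites, gave the widest spread among esophagus organoids of the 14 probes (SD 2.24). It read 7.68, 7.39 and 7.63 in stomach organoids, and 12.18, 10.98 and 7.85 in esophagus organoids of mice 1, 2 and 4. All 3 esophagus values were above all stomach values, that of mouse 4 by only 0.22 within the mouse, against 4.50 and 3.59 in mice 1 and 2. The log2 difference of 2.77 (SE 0.94, unadjusted p = 0.0196, adjusted p = 0.113) did not pass the test, while it met the methods' rule. Without the esophagus array of mouse 4 the difference was 4.02 with an adjusted p of 0.00034, and the slide block, which takes that array out of the estimate, gave the same. Without the esophagus array of mouse 1 it was 1.85 (adjusted p = 0.214). Over the 15 alternatives the log2 difference ranged from 1.85 to 4.02 and the adjusted p from 0.00034 to 0.288.

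The esophagus array of mouse 4 also had the lowest value of that group for 5 of 6 suprabasal squamous markers, with Ivl, the gene of involucrin, as the exception. Lor, which encodes loricrin of the cornified envelope, read 14.44, 16.94 and 10.38 in mice 1, 2 and 4. Sprr3, a small proline-rich envelope protein, read 15.62, 15.19 and 11.62, and Crct1 read 17.33, 17.07 and 14.22. Krt13, a keratin of the suprabasal layers, differed less, with 16.60, 16.85 and 16.41. The summed suprabasal signal was 348000, 445000 and 118000 for these arrays, while the basal sum was 323000, 375000 and 367000. The part of these markers, or of the slide, in the Anxa9 values was not tested.

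**Figure D4:**
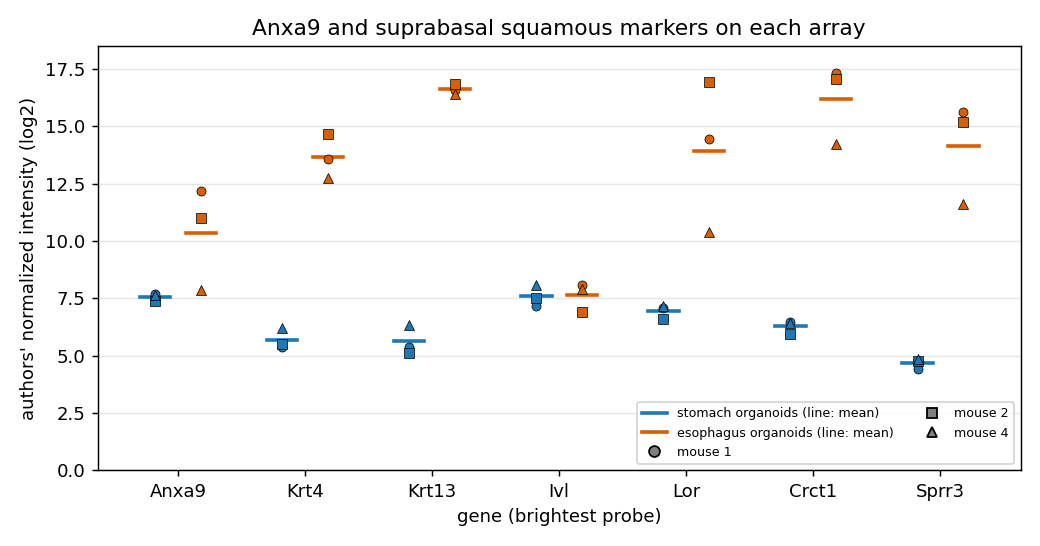
Authors' normalized log2 intensity of Anxa9 and of 6 suprabasal squamous markers on each array, with a marker shape for each mouse and a line at each group's mean. The esophagus array of mouse 4 (triangle) was the lowest of its group for Anxa9 (7.85), Krt4, Krt13, Lor, Crct1 and Sprr3.

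Anxa8, an annexin known from squamous epithelia, did not pass the test by either probe and varied widely among esophagus organoids. Probe A_51_P207591 read 14.71, 14.49 and 14.37 in stomach and 15.60, 14.26 and 13.90 in esophagus organoids. This probe is printed 10 times on each array, and the spots of 1 array had an SD of 0.10 to 0.19, which covers the reading of spots and not the variation between arrays or cultures. Probe A_55_P1965338 placed the arrays in the same order, with 12.57, 12.52 and 12.38 in stomach and 13.63, 11.96 and 11.75 in esophagus organoids. By both probes the esophagus array of mouse 1 was the highest of all 6 and those of mice 2 and 4 the lowest. The log2 differences were 0.07 (SE 0.40, adjusted p = 0.949) and -0.04 (SE 0.45, adjusted p = 0.972), and each changed sign under some alternatives.

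Mouse 1 gave the highest esophagus value for 9 of the 12 annexin probes well above background on all arrays, mouse 2 for 3 and mouse 4 for 0. Mouse 4 gave the lowest for 8. Among all 21382 such probes with a value on every array, mouse 1 was highest for 33.3% and mouse 4 lowest for 28.1%. The SD was larger among esophagus than among stomach arrays for 9 of the 12, beside 58.1% of those 21382 probes. The 12 probes include pairs of 3 genes and are not independent, so these counts are a description. On the esophagus array of mouse 1, Cd68, a lysosomal gene on the immune list, read 14.77, and on those of mice 2 and 4 it read 12.94 and 11.80. Its part was not tested.

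Anxa5, the phosphatidylserine-binding protein used to stain dying cells, did not pass the test. It read 14.09, 14.33 and 14.41 in stomach and 13.81, 13.92 and 13.76 in esophagus organoids. The groups did not overlap and all mice had the lower value in the esophagus, but the log2 difference was only -0.45 (SE 0.15, unadjusted p = 0.0187, adjusted p = 0.109). It passed under 1 of 15 alternatives, the larger normexp offset (-0.50, adjusted p = 0.0372), where the adjusted p over all of them ran from 0.0372 to 0.778.

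Anxa2, which joins S100a10 in a complex at the plasma membrane, was bright in both tissues. It read 17.13, 16.80 and 17.46 in stomach and 17.49, 17.35 and 17.41 in esophagus organoids, so the groups overlapped. The log2 difference was 0.29 (SE 0.19, adjusted p = 0.433), and no spot was saturated. Anxa7, also called synexin, had overlapping groups by both probes. Probe A_55_P1962039 read 12.46 to 12.88 in stomach and 12.58 to 13.07 in esophagus organoids (difference 0.16, SE 0.19, adjusted p = 0.703). Probe A_51_P402458 read 9.71 to 10.23 and 9.27 to 9.87 (difference -0.37, SE 0.22, adjusted p = 0.378).

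Promoters are shown for Anxa10 and Anxa1, which had the largest difference of a called probe in each direction, for Anxa1 by probe A_66_P120567 and not by its brightest probe. They are RefSeq sequences on build GRCm38.p6, from 250 bases before to 50 bases after the start of the gene, and 8 of the 10 annexins had 11 such entries. Capitals mark matches to the letters searched, on both strands.
Anxa10 chr8:62123144-62123443, minus strand: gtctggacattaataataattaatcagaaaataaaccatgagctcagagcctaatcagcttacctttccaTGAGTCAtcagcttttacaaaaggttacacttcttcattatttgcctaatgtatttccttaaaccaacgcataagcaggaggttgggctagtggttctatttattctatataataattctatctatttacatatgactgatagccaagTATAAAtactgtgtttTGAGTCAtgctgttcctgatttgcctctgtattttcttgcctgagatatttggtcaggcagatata
Anxa1 chr19:20390622-20390921, minus strand: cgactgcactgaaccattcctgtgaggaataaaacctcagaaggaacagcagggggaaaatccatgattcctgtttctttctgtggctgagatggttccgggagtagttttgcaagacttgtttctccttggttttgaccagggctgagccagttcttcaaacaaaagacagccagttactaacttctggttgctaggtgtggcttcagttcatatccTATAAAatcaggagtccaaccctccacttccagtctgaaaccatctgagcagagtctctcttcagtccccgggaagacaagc
Both promoters held TATAAA, the TATA box, starting at base 219 of the 300 shown, and 13.6% of all 32851 promoters held it on either strand. The Anxa10 promoter also held the AP-1 letters TGANTCA at bases 71 and 235, where each palindromic match is the same on both strands. These letters were in 7.8% of all promoters, and among annexins in those of Anxa10 and Anxa2. Neither promoter held CCAAT (37.4% of all promoters), the GC box CCGCCC (35.7%), the forkhead letters TGTTTNC (20.5%) or the GATA letters NGATAA (25.3%). A match is a run of letters and was not tested as a binding site.

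The genes with the most similar pattern over the 6 arrays were sought among the 25823 probes that at least 1 tissue had well above background on its 3 arrays. Similarity was the root mean square difference of log2 values after each probe's mean was taken away. For Anxa10 the nearest were Sftpd (0.18), Vsig2 (0.21) and Sult1c2 (0.25), which encode surfactant protein D, an immunoglobulin-domain membrane protein and a sulfotransferase. The Anxa10 values in esophagus organoids were not well above background, so its order of neighbours rests in part on values that give only a bound. For Anxa4 they were Arhgap29 (0.04), Rbm47 (0.11) and Slain1 (0.15). For Anxa3 they were Foxq1 (0.19), Rassf6 (0.23) and a noncoding interval probe. For Anxa6 the nearest was Tmem54 (0.24). For Anxa8 the nearest named genes were Lpar3 (0.08) and Acvrl1 (0.10), and for Anxa9 Itgal (0.30), Krtap10-10 (0.34) and Cxcl1 (0.35). For Anxa1, Anxa2, Anxa5 and Anxa7, which differed little by their brightest probes, the nearest lay at 0.02 to 0.06.

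Genes known to bind annexins or to act with them at membranes were taken as a list of 30, each by its brightest probe. Of these, 5 were higher in esophagus organoids, 5 were higher in stomach organoids and 20 were not called, beside 7.15% and 7.7% of all genes, with a median log2 difference of 0.11. The list was chosen with earlier results of these data known.

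**Figure D5:**
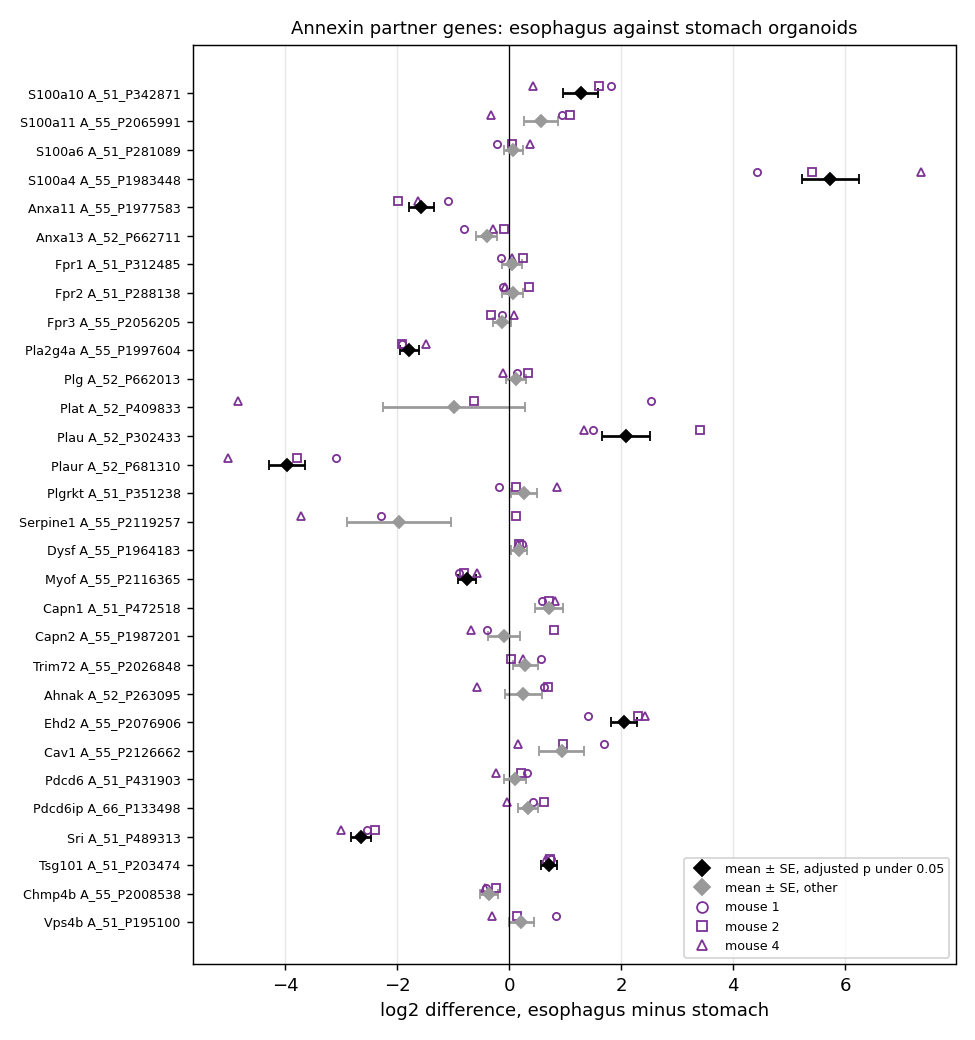
Log2 difference, esophagus minus stomach, of the brightest probe of 30 annexin partner genes, with diamonds for the limma estimate and its SE (black where the adjusted p was under 0.05) and open purple marks for the difference within each mouse. S100a4 lay farthest to the right (5.73) and Plaur farthest to the left (-3.97).

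Of 4 S100 proteins that bind annexins, 2 were higher in esophagus organoids and 0 were lower. S100a4, a calcium-binding protein that binds Anxa2, read 8.28, 7.44 and 7.21 in stomach and 12.71, 12.86 and 14.56 in esophagus organoids, which is 53.1-fold. Its log2 difference was 5.73 (SE 0.51, adjusted p = 0.000225), and 5.14 without the esophagus array of mouse 4. Over the 15 alternatives it ranged from 5.14 to 6.12 and was called in each. S100a10, the partner that holds Anxa2 at the membrane, read 13.55, 13.39 and 14.59 in stomach and 15.37, 15 and 15.01 in esophagus organoids (difference 1.28, adjusted p = 0.0354). That call was lost under 8 of 15 alternatives, with adjusted p of 0.0017 to 0.145 over all. S100a11, which binds Anxa1, differed by 0.57 (adjusted p = 0.32) and S100a6, which binds Anxa11, by 0.07 (adjusted p = 0.867), both with overlapping groups.

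Of 2 annexins with gene names outside the 10, Anxa11 was 2.98-fold higher in stomach organoids. It read 14.60, 14.65 and 14.67 in stomach and 13.50, 12.66 and 13.04 in esophagus organoids, a log2 difference of -1.57 (SE 0.22, adjusted p = 0.00269). Anxa13, known from the intestine, was well above background on 1 of 6 arrays. Sri, which encodes sorcin, a calcium-binding partner of Anxa7 and Anxa11, was also higher in stomach organoids. It read 15.42, 15.15 and 15.74 in stomach and 12.89, 12.74 and 12.74 in esophagus organoids (difference -2.64, SE 0.18, adjusted p = 5.97e-05). The other called gene of that list of 6, Tsg101 of the ESCRT machinery, was higher in esophagus organoids by 0.71 (adjusted p = 0.0184), a call lost under 6 of 15 alternatives.

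Of the 4 genes of formyl peptide signalling and phospholipase, Pla2g4a, the cytosolic phospholipase A2 that annexins are known to inhibit, was 3.43-fold higher in stomach organoids. It read 11.94, 11.87 and 11.94 in stomach and 10.02, 9.95 and 10.44 in esophagus organoids (difference -1.78, SE 0.17, adjusted p = 0.000371). The receptor genes Fpr1 and Fpr3 stood well above background on 0 of the 6 arrays and Fpr2 on 1.

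Of 6 plasminogen genes, the urokinase gene Plau and the gene of its receptor, Plaur, were called in opposite directions. Plau read 5.36, 5.19 and 5.96 in stomach and 6.85, 8.59 and 7.30 in esophagus organoids (difference 2.08, SE 0.43, adjusted p = 0.0183). It was dim in stomach organoids, well above background on 2 of the 3 arrays. Its difference ranged from 1.43 to 2.88 over the 15 alternatives. Plaur read 13.09, 13.47 and 13.98 in stomach and 9.99, 9.68 and 8.95 in esophagus organoids (difference -3.97, SE 0.32, adjusted p = 0.000128). The Plau call was lost under 4 of 15 alternatives and that of Plaur under 0. Plat, the tissue activator, read 12.33, 9.28 and 6.55 in esophagus organoids and 9.79 to 11.39 in stomach organoids, and was not called (adjusted p = 0.726). Plg, plasminogen itself, stood well above background on 0 of the 6 arrays.

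Of 8 membrane repair genes, 1 was called in each direction. Ehd2, an ATPase at the neck of caveolae, read 8.20, 8.12 and 7.94 in stomach and 9.60, 10.42 and 10.37 in esophagus organoids (difference 2.05, SE 0.24, adjusted p = 0.00101). Myof, a ferlin, was dim, at 5.64 to 6.02 in stomach organoids and not well above background in esophagus organoids. It was called higher in stomach organoids (difference -0.76, SE 0.16, adjusted p = 0.0176). The size depends on the processing, with a difference of -0.42 at the normexp offset of 50. That call was lost under 4 of 15 alternatives. The 6 others, among them Dysf, Trim72 and the calpain genes Capn1 and Capn2, were not called. Of these, Ahnak (0.25, adjusted p = 0.733) and Cav1 (0.94, adjusted p = 0.209) were called with the slide block or without esophagus 4 (0.67, adjusted p = 0.0353, and 1.36, adjusted p = 0.0305). Cav1 was well above background on 0 stomach and 2 esophagus arrays, and its groups overlapped. The Cav1 differences thus rest on stomach values not above background, and the main difference also on such a value in esophagus organoids. No bound on its fold is given. Capn1 (0.71) was called with the mouse as a block (adjusted p = 0.0439).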

How the data were processed

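RNA was hybridised to 1-colour Agilent mouse arrays, 1 array for each of 6 cultures, whose spots the authors read with Agilent Feature Extraction (version 11.5.1.1 in the file headers). The authors deposited raw spot intensity per array and a table of log2 values, background corrected and quantile normalized according to the methods. Quantile normalization of the median signals after normexp (offset 15) gave values within a median of 0.0043 and at most 0.0726 of that table. It has 2029 empty cells, each a spot marked as an outlier. Main values were these log2 values, averaged over the spots of a probe. A shift in one direction of most probes would be removed by the quantile step.

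Tissues were compared with limma 3.58.1 in R 4.3.3 (lmFit and eBayes, Benjamini-Hochberg over 55681 probes). The number of arrays limits the precision. The fit was tested on simulated data. Every annexin probe and every called partner gene is named. Of the genes nearest in pattern, 1 is not reported here. For a probe not well above background in a whole group, the bound was computed per array from the higher of its own signal and the lowest signal well above background. Such a bound holds for the authors' values and can change with the processing. For Vwf and Myof it equals the measured fold, so no bound is given for them. Alternatives were intensity values from the scanner files with normexp offsets of 16 and 50, with outlier-marked spots kept, and the software's background-subtracted signal scaled to the 75th percentile or by quantiles. Others were a filter on dim probes, a trended robust spread, mouse and slide blocks, the omission of each array and other thresholds. As esophagus 4 lay alone on its slide, the slide block and its omission gave the same values. Both are counted among the 15 alternatives and are not independent.

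The labels give the arrays of both tissues mouse numbers 1, 2 and 4, which were read as the same animals. Deviations from the group means correlated at 0.025, 0.012 and -0.0079 between tissues of mice 1, 2 and 4, so the values themselves gave no sign of pairing. Members and lists were chosen with earlier results of these data known.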

Additional observations from a re-analysis of the deposited data

How the results depend on the processing

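Directions and calls of the Anxa1 probe A_66_P120567, Anxa4 A_55_P2092859, Anxa6 and Anxa10 were kept under all 15 alternatives. The count of annexin probes higher in stomach organoids (4) stayed within 1.5 times. The count higher in esophagus organoids (2) was 1, and that by brightest probe (1) was 0, with the 75th percentile, with quantile normalization of the subtracted signal, with the mouse as a block and with a 2-fold minimum. By the methods' rule the count by brightest probe was 2. With each array left out the first count ranged from 1 to 2 and the second from 0 to 1, and without esophagus 4 the second is Anxa9 in place of Anxa1. Partner genes higher in esophagus organoids (5) were 3 with the offset of 50 and with quantile normalization of the subtracted signal, and 2 to 6 with an array left out. Called probes (6770 in all) ranged from 4091 to 7415 with an array left out, the lowest without stomach 1, and were 4152 without stomach 2. The mouse block changed no other annexin call and gave a call to Capn1 (0.71, adjusted p = 0.0439). The 75th percentile moved the median difference of all probes from 0.02 to 0.19.

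Some differences that were not called changed sign, most of them near 0, with Plat (-0.98) as the exception. Of the Anxa8 probes, A_55_P1965338 (-0.04) was 0.26 with the 75th percentile and 0.30 with the slide block. With the 75th percentile Fpr3 was 0.15 and Capn2 0.17, and with the slide block S100a6 was -0.04, Plat 0.44 and Capn2 0.01. With each array left out, the lowest and highest values were as follows. A_51_P207591 of Anxa8 (0.07) ranged from -0.44 without esophagus 1 to 0.41 without esophagus 4, with -0.01 without stomach 4. A_55_P1965338 ranged from -0.63 to 0.30. Capn2 ranged from -0.39 to 0.10, Fpr1 from -0.08 to 0.19, Fpr2 from -0.10 to 0.17, Pdcd6 from -0.05 to 0.26, Plat from -2.45 to 0.44, Plg from -0.04 to 0.21, S100a6 from -0.04 to 0.17 and Vps4b from -0.01 to 0.37. Under the alternatives that lost calls the cause was not tested. Signal not above background limits Anxa10 in esophagus organoids to a bound, and the second Anxa4 probe and Anxa13 to no value. The differences of Myof and Cav1, among others, rest in part on such signal.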
